A study of Mus musculus with 11 samples.

Results

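The genes described here encode the proteins of the mitochondrial ribosome in mouse microglia, the macrophages of the brain. They were chosen by name, as protein-coding genes whose symbol starts with Mrps or Mrpl followed by a number. The naming rule uses no expression value, but the group was chosen with earlier results of these data known. The rule found 78 genes among the 16894 of the deposited table, 29 with small-subunit names (Mrps) and 49 with large-subunit names (Mrpl). Each of the 78 had at least 99 counts in every library, and all of them passed the filter on low counts in each comparison.

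Mitochondria carry a small genome that encodes core subunits of the respiratory chain, and they translate those messages on ribosomes of their own. The ribosomal RNAs come from the mitochondrial genome, whereas every protein of this ribosome is encoded in the nucleus, made in the cytosol and imported. Some of these proteins descend from the bacterial ribosome, and others were added during the evolution of mitochondria. In macrophages, including microglia, the balance between respiration and glycolysis shifts with activation and with growth in culture. The ribosomal RNAs and the other genes of the mitochondrial genome were not analysed here.

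RNA was sequenced in 11 libraries, all labelled with the genotype Cx3cr1-GFP, in which a green fluorescent reporter marks microglia. Primary microglia in culture gave 3 libraries, resident microglia sorted from brain by fluorescence gave 4, and transplanted microglia sorted in the same way 3 months after transplantation gave 4. The question in the design text is how closely transplanted cells take on the expression programme of naive microglia, with the other groups as controls. The labels describe chow with PLX3397 at 600 mg/kg, which blocks Csf1r, a receptor that microglia need to survive, given in 3 cycles before transplantation. This protocol is attached to every library, and whether donors of resident cells ate it is not stated. Nor do the labels name the source of the transplanted cells or give replicates as separate mice or cultures. The p-values thus reflect how far these libraries scatter, and that scatter may be technical.

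Levels are CPM, counts scaled to a common library total over all 11 libraries, and folds on the log2 scale with their standard error (SE). A gene was called higher or lower at a Benjamini-Hochberg adjusted p under 0.05 in edgeR's quasi-likelihood test over all genes of a comparison. Libraries held 26705034 to 28219696 counts in culture, 19055655 to 19965631 when resident and 18692721 to 19761208 after transplantation. Markers of microglia (12 genes) summed to 9346 to 10820 CPM in cultured libraries, 59960 to 67600 CPM in resident libraries and 55400 to 65930 CPM after transplantation, and all 12 were called lower in culture. The Siglech marker was under 1 CPM in each cultured library. In bulk RNA, fewer cells of a type and less RNA per cell cannot be told apart. Cultured replicate 2 stood apart from the other cultured libraries: genes with the shortest 10% of transcripts lay a median of 1.30 above their mean over all libraries on the log2 scale in it, against 0.87 and 0.78 in cultured replicates 1 and 3. Resident libraries lay at -0.35 to -0.26 on this measure and transplanted libraries at -0.48 to -0.35.

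The promoters of the group were searched for binding motifs of factors that are known to control nuclear genes for mitochondria. RefSeq promoter sequences of build GRCm38.p6, from 250 bases before to 50 bases after the start, were given for 69 of the 78 genes. Mrpl46 and Mrps11 on chromosome 7 lie head to head, with the first base of Mrps11 42 positions beyond the last of Mrpl46, so their windows overlap. The Mrps11 window held 1 motif, that of YY1, and the Mrpl46 window held none, so no stretch was counted for both. No other windows among the 69 genes overlap. The motifs were that of NRF1 (the 10 bases in capitals at Mrpl9), the motif of ETS factors such as GABP (CCGGAAGT) and the motif of YY1 (AAGATGGC), each on both strands. At least 1 of them was found in 25 of the 69 promoters (36.2%), against 1714 of 13333 promoters of protein-coding genes in the table (12.9%). ETS and YY1 motifs each occurred in 12 member promoters (17.4%), against 7.3% and 4.3% of all promoters. The NRF1 motif occurred in 3 (4.3%, against 1.9%), and the E-box CACGTG in 5 (7.2%, against 10.4%). Among cytosolic ribosomal protein genes 20 of 63 promoters (31.7%) held an NRF1, ETS or YY1 motif, and among nuclear-encoded respiratory chain genes 20 of 68 (29.4%). A match is a description of the letters, not evidence that a factor binds there. The stretches below show 1 motif each in capitals, read along the gene's strand, for genes that return in the results: the largest rise in culture (Mrpl33), a rise that persisted after adjustment for length (Mrpl51), genes whose call turned or was lost with that adjustment (Mrpl52, Mrpl3) and a gene that was not called in counts (Mrpl9).
Mrpl33, ETS, chr5:31613928-31613965, plus strand: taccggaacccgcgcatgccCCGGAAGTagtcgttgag
Mrpl51, ETS, chr6:125192090-125192137, plus strand: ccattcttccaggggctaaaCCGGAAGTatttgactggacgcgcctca
Mrpl52, ETS, chr14:54426890-54426923, plus strand: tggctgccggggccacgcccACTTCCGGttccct
Mrpl3, ETS, chr9:105053229-105053276, plus strand: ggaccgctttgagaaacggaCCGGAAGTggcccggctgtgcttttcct
Mrpl9, NRF1, chr3:94443288-94443337, plus strand: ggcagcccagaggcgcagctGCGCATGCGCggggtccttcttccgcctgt
The motif began 3 bases before the start in Mrpl33 and 19 bases before it in Mrpl3, and at base 2 after the start in Mrpl52.

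In counts, the mitochondrial ribosome genes were higher in cultured than in resident microglia. The 78 genes together summed to 3233, 3878 and 3090 CPM in cultured replicates 1, 2 and 3, against 1670 to 1708 CPM in the 4 resident and 1536 to 1662 CPM in the 4 transplanted libraries. They held 0.235% to 0.3% of counts in cultured libraries, 0.1845% to 0.189% in resident libraries and 0.17% to 0.188% after transplantation. Cultured libraries lay apart from the others in both measures, while resident and transplanted libraries overlapped in their share of counts. CPM carry the TMM factor and shares of counts do not, and cultured libraries lay further from the others in CPM. In summed CPM every transplanted library lay below every resident one. The test called 64 of 78 genes higher in cultured cells and 3 lower, with 11 not called, where 37.9% of all 12406 genes tested were called higher and 37.2% lower. The median log2 fold change of the members was 1.08, against -0.02 over all genes tested. For 63 genes every cultured library lay above every resident library (36.5% of all genes), and for 3 every cultured library lay below (39.3%). Without cultured replicate 2 the counts were 63 higher and 3 lower, and the median was 0.93.

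**Figure D1:**
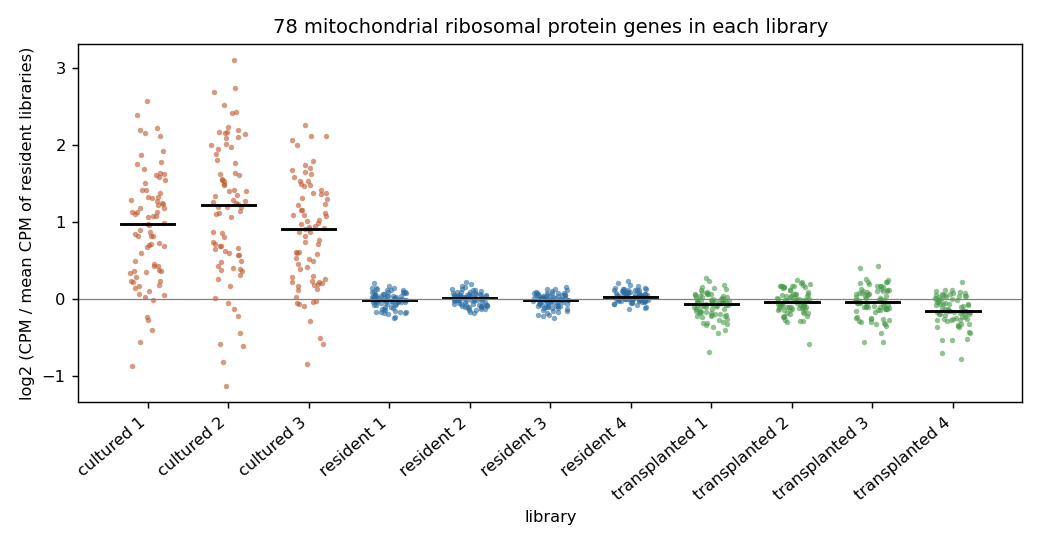
Each point is 1 of the 78 genes in 1 library, as the log2 ratio of its CPM to its mean CPM in resident libraries, and the black bar is the median over the genes. Cultured libraries lie above 0 with a wide spread between genes, and resident and transplanted libraries lie close to 0.

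Most genes of both subunits were higher. Of 29 genes with small-subunit names 24 were called higher and 0 lower in culture, with a median log2 fold change of 1.04. Of 49 with large-subunit names 40 were higher and 3 lower, with a median of 1.095. Genes whose proteins have a bacterial counterpart numbered 48, of which 42 were higher and 0 lower with a median of 1.175. Among 29 genes for proteins specific to mitochondria 21 were higher and 3 lower, with a median of 0.70. The difference between the classes was not tested. Mrps36, whose product is now counted as a subunit of the 2-oxoglutarate dehydrogenase complex and not of the ribosome, belonged to neither class.

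The largest difference was at Mrpl33, a small protein of the large subunit (Entrez 66845, chromosome 5: 31613951 to 31622644, GRCm38.p6, like all gene positions here). It stood at 33.9, 48.8 and 24.6 CPM in cultured replicates 1, 2 and 3, at 6.25, 5.79, 4.80 and 5.94 CPM in the resident and at 5.005, 5.43, 5.73 and 4.79 CPM in the transplanted libraries. The cultured libraries did not overlap with the others, although they differed among themselves by more than any resident pair. Mrpl33 was 6.44-fold higher in cultured than in resident cells, a log2 fold change of 2.69 ± 0.23 (SE, adjusted p = 6.03e-06). It shares 22.4% of its exonic bases with another annotated gene on the same strand.

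Mrpl28, a further protein of the large subunit (Entrez 68611, chromosome 17: 26123503 to 26126613), reached 141, 173 and 129 CPM in culture. In the 4 resident libraries it was at 29.2, 25.2, 27.9 and 25.7 CPM, and in the 4 transplanted libraries at 25.75, 27.8, 21.8 and 19.7 CPM. Its level in culture was thus 5.61 times the resident one, with a log2 fold change of 2.49 ± 0.13 (adjusted p = 2.43e-07). Mrpl30 (70.6 ± 11.6 CPM in culture, SD, n = 3, and 14.55 ± 1.06 resident, n = 4), Mrps21 (47.8 ± 17.55 and 9.91 ± 1.35) and Mrpl54 (35.6 ± 4.47 and 7.62 ± 0.67) followed, with log2 fold changes of 2.32, 2.31 and 2.26. Mrps36 was 4.39-fold higher, at 36.3 ± 2.18 against 8.475 ± 0.66 CPM.

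By role, the genes for proteins of the stalk that recruits translation factors were higher in counts by different amounts. Mrpl12, the stalk protein that is also known to bind the mitochondrial RNA polymerase (Entrez 56282, chromosome 11: 120484637 to 120488754), was at 68.3, 99.9 and 59.2 CPM in cultured libraries. It was at 22.2, 21.2, 22.1 and 23.8 CPM in resident and 19.1, 20.2, 23.4 and 19.5 CPM in transplanted libraries, a log2 fold change of 1.80 ± 0.17 for cultured against resident cells. Its neighbours at the stalk base, Mrpl10 and Mrpl11, rose by 0.64 ± 0.11 and 1.10 ± 0.17.

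Genes for proteins at the functional centres were higher in counts as well. Mrps12, a protein of the decoding centre, rose by 1.35 ± 0.13, from 17.05 ± 1.025 CPM in resident to 42.4 ± 6.18 CPM in cultured cells. Mrpl3 and Mrpl4, both conserved in bacteria, rose by 0.41 ± 0.12 and 1.21 ± 0.08, and Mrpl18, a relative of the bacterial protein that binds 5S ribosomal RNA, by 1.56 ± 0.16. The call of Mrpl3 was lost without cultured replicate 3 (0.295, adjusted p = 0.0569). Mrpl58, a peptidyl-tRNA hydrolase that frees stalled ribosomes, rose by 1.43 ± 0.12.

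Mrpl45, which lies at the exit of the peptide tunnel and anchors the ribosome to the inner membrane (Entrez 67036, chromosome 11: 97314923 to 97329920), was at 73.7, 84.0 and 67.8 CPM in cultured libraries. The resident libraries had 20.4, 19.3, 19.2 and 19.25 CPM and the transplanted ones 20.7, 21.9, 20.5 and 18.7 CPM. Its log2 fold change in culture was 1.98 ± 0.11 (adjusted p = 3.54e-07). The cultured libraries lay far above the sorted ones, and resident and transplanted libraries overlapped.

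The 3 paralogues of bacterial S18 all rose, by different amounts. Mrps18c reached 48.9 ± 14.2 CPM in culture from 12.2 ± 0.18 resident (2.04 ± 0.18), Mrps18a rose by 1.53 ± 0.11 and Mrps18b by 0.46 ± 0.13. Mrps18b shares 59.1% of its exonic bases with a gene on the opposite strand, and strand is not given in the labels, so its reads cannot be told apart from those of that gene. Mrps30, which despite its name sits in the large subunit, rose by 0.50 ± 0.11.

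Against this trend, Mrpl49, Mrpl38 and Mrpl44 were lower in culture. Mrpl49 (Entrez 18120, chromosome 19: 6053630 to 6057755) was at 16.3, 13.65 and 16.6 CPM in cultured libraries, at 31.7, 27.2, 30.9 and 29.9 CPM in resident and at 28.3, 28.5, 25.3 and 29.1 CPM in transplanted libraries. It fell by 0.91 ± 0.13 on the log2 scale (adjusted p = 1.43e-04). Mrpl38 (Entrez 60441, chromosome 11: 116131817 to 116138868), a relative of phosphatidylethanolamine-binding proteins, was at 19.8, 16.55 and 19.45 CPM against 31.65, 27.3, 30.8 and 27.1 CPM resident, and fell by 0.61 ± 0.13. Mrpl44 (Entrez 69163, chromosome 1: 79776018 to 79781445), with a fold related to ribonuclease III, was at 20.04, 17.7 and 18.6 CPM against 25.85, 27.6, 26.6 and 26.15 CPM, and fell by 0.46 ± 0.11. In each of the 3 genes all cultured libraries lay below all resident ones. The genes not called were Mrpl1, Mrpl9, Mrpl16, Mrpl47, Mrpl50, Mrpl53, Mrps2, Mrps6, Mrps22, Mrps25 and Mrps31, with log2 fold changes from -0.24 (Mrps2) to 0.39 (Mrpl47). Mrpl9, with the NRF1 motif printed above, had 0.29 ± 0.13 (adjusted p = 0.0611). Without cultured replicate 3, Mrps2 was called lower (-0.41, adjusted p = 0.0251).

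**Figure D2:**
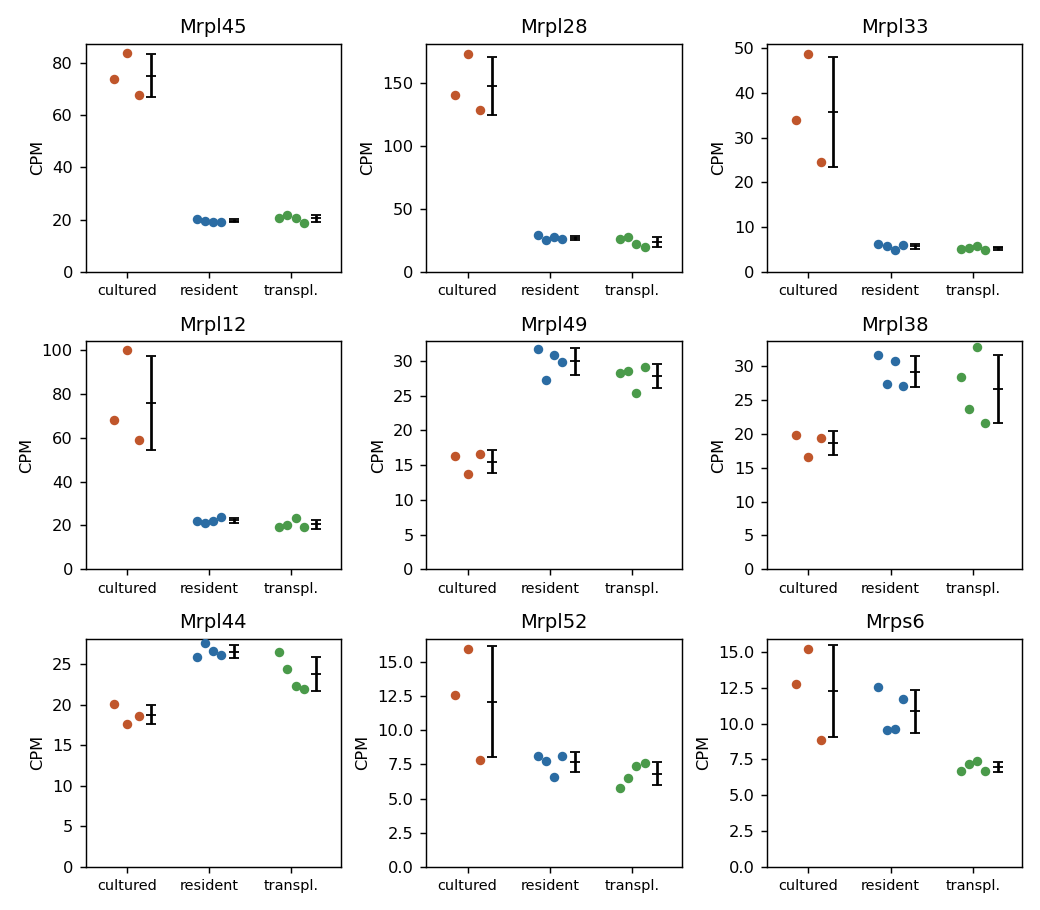
Points are the CPM of single libraries for 9 genes, and the bars give the mean and SD of each group of 3 cultured, 4 resident or 4 transplanted libraries. Mrpl45, Mrpl28, Mrpl33 and Mrpl12 are higher in all cultured libraries, Mrpl49, Mrpl38 and Mrpl44 are lower, and Mrps6 is lowest in the transplanted libraries.

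Transcript length ran with these folds. A length for each transcript was derived from the deposited values, as counts divided by TPM (a level scaled for length and library). It was put on the scale of bases with the FPKM column. This is the length implied by the scaling and need not equal the annotated one. For Mrpl33 it was 235 bases, where the annotated exons cover 478. The members are short, with a median of 832.9 bases (182 for Mrpl52 to 6482 for Mrpl17), against 2661 bases over 12145 genes with a mean count of at least 10. Of the 78, 43 fell among the shortest 10% of genes tested between cultured and resident cells. That class had a median log2 fold change of 1.38 in culture over all its 1223 genes, and the longest 10% had -0.48. Within the members the log2 fold change correlated with log2 length at r = -0.45 across 78 genes, and over 12230 genes at -0.22, where genes share libraries and are not independent replicates.

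Genes of similar length give the level against which the members can be read, so each member was set against the median of the other genes in its own 10% of length. The 43 members in the shortest class had a median length of 634.7 bases and a median log2 fold change of 1.43, against 1.38 for the other genes of that class, and 22 of them lay above it. Of the 17 members in the next class 7 lay above the median of the other genes, and the median difference was -0.07. The 18 members in the remaining classes lay a median of 0.66 above the other genes of their own class, with 14 of 18 above. These medians were chosen after the values were seen, and no test was made of them.

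**Figure D3:**
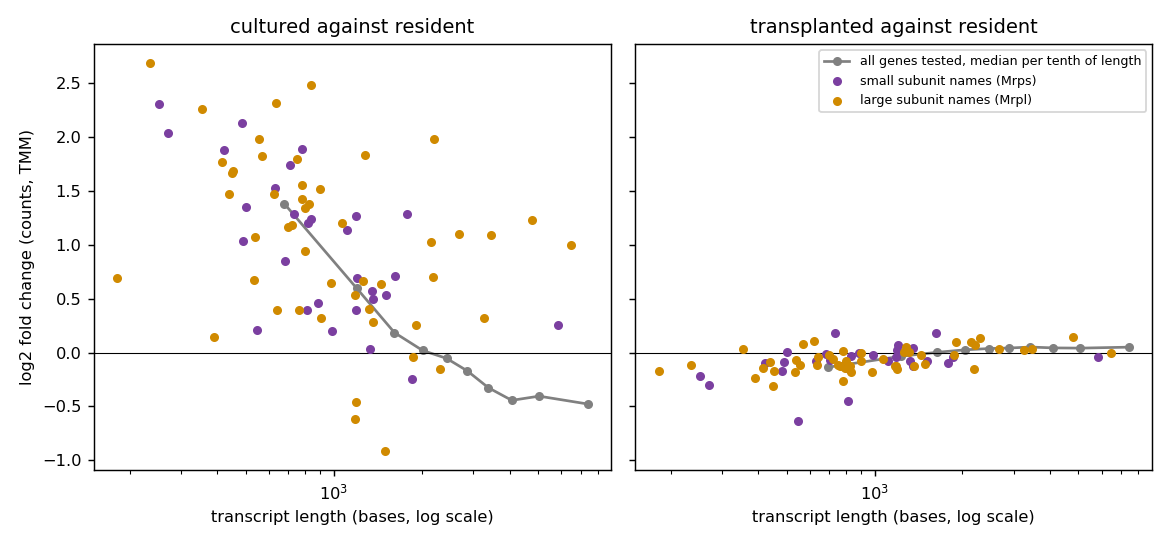
The log2 fold change of each of the 78 genes is plotted against transcript length on a log axis, for cultured against resident and transplanted against resident cells, with the median of all genes tested in each 10% of length as a grey line. In culture the line falls from 1.38 in the shortest to -0.48 in the longest class, and 14 of the 18 members beyond the shortest 2 classes lie above the other genes of their class, whereas transplanted cells show little slope.

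The comparison was therefore repeated with the length trend of each library removed: a smooth curve of the log2 ratio to the mean of the libraries on log2 length was taken out before the same edgeR test. This removes whatever runs with length, and a difference of the cells and a difference of the libraries cannot be told apart by it. The test then called 31 members higher and 16 lower in culture, with 31 not called, where 38.3% of all genes were called higher and 35.7% lower. The share of members called higher was 39.7%, close to the background, while the share called lower was 20.5%, below the background of 35.7%. The median log2 fold change was 0.18, against 0.03 over all genes. Without cultured replicate 2 the counts were 39 higher and 16 lower. The removal left the opposite slope within the members (r = 0.51 across 78 genes, against -0.01 across all genes), so that the shortest members now tended to the lower values. With small-subunit names 9 were higher and 6 lower, and with large-subunit names 22 and 10. Of the genes for conserved proteins 19 were higher and 9 lower, and of those for mitochondria-specific proteins 11 and 7.

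Of the 64 genes higher in counts, 30 stayed higher once the length trend was removed, 26 were no longer called and 8 were called lower. Mrpl45 was the highest of those that stayed, at 2.05 ± 0.12 on the log2 scale (adjusted p = 4.66e-07). Other long transcripts gained: Mrpl19 went from 1.23 to 1.69, Mrpl35 from 1.09 to 1.47, Mrpl17 from 1.00 to 1.45 and Mrpl11 from 1.10 to 1.31. Mrpl19 shares 39.2% of its exonic bases with a gene on the opposite strand, so its value carries the same uncertainty as that of Mrps18b.

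Mrpl28 (1.51 ± 0.09), Mrpl51 (1.40 ± 0.13), Mrps14 (1.23 ± 0.15), Mrpl30 (1.01 ± 0.09) and Mrpl12 (0.67 ± 0.10) also stayed higher. Mrpl51, which carries the ETS motif printed above, was at 62.2, 90.7 and 57.9 CPM in cultured libraries and 19.3 to 21.3 CPM in resident libraries. Mrpl33, Mrps21, Mrpl54 and Mrps18c, at 235, 252, 355 and 270 bases among the shortest members, were no longer called, with values of 0.25, -0.07, 0.30 and -0.24. Mrps12 and Mrpl3 were no longer called either (-0.24 and 0.01).

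The 8 genes whose call turned were Mrpl22, Mrpl24, Mrpl32, Mrpl52, Mrps11, Mrps18b, Mrps28 and Mrps34. The shortest of all members, Mrpl52 (182 bases, Entrez 68836, chromosome 14: 54426909 to 54429750), was at 12.55, 15.9 and 7.80 CPM in culture and at 8.15, 7.755, 6.605 and 8.14 CPM in resident cells, with cultured replicate 3 inside the resident range. Its log2 fold change was 0.70 ± 0.24 in counts and -1.98 ± 0.15 with the length trend removed. The call in counts was lost without cultured replicate 1 or 2 or resident replicate 2, 3 or 4 (0.41 to 0.70, adjusted p 0.0518 to 0.099). The turn of the other 7 was smaller, from 0.68 to -0.80 for Mrpl22, 0.39 to -0.70 for Mrpl24 (which shares 38.2% of its exonic bases with a gene on the opposite strand), 0.39 to -0.60 for Mrps11, 1.04 to -0.58 for Mrps28, 0.46 to -0.44 for Mrps18b, 1.07 to -0.43 for Mrpl32 and 0.85 to -0.38 for Mrps34. With the trend fitted without the ribosome and organelle lists, the lower calls of Mrpl32 (-0.25, adjusted p = 0.078) and Mrps34 (-0.25, adjusted p = 0.0599) were lost. Among these, Mrpl24 lost its call in counts without cultured replicate 2 (0.16, adjusted p = 0.104) or any 1 resident library, and Mrps11 without cultured replicate 1 or resident replicate 3 (0.31 and 0.33).

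Mrpl49, Mrpl38 and Mrpl44 were lower in both fits, at -1.16 ± 0.13, -1.13 ± 0.14 and -0.97 ± 0.12 with the length trend removed. A further 5 genes that were not called in counts became lower (Mrps6, Mrpl53, Mrpl16, Mrpl47 and Mrps22), and Mrps25 became higher (0.71 ± 0.12). All exonic bases of Mrpl53 and 58.2% of those of Mrps25 lie in other annotated genes, so their counts are uncertain. Of the 78 genes 16 share at least 10% of their exonic bases with another gene and 52 share none.

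**Figure D4:**
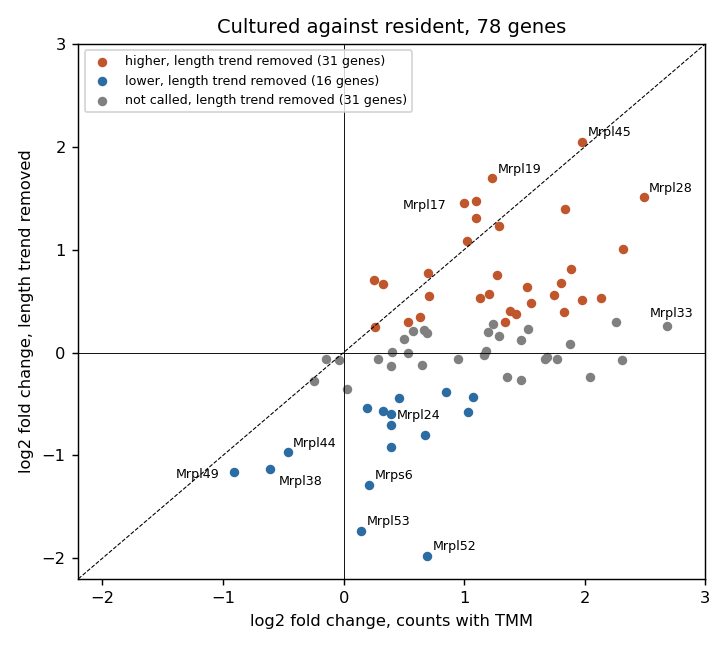
Each point is 1 of the 78 genes, with its log2 fold change of cultured against resident cells in counts on the horizontal axis and with the length trend removed on the vertical axis, and colours mark the call of the latter fit. Mrpl45, Mrpl19 and Mrpl17 lie on or above the dashed line of equal values, 31 genes are called higher and 16 lower, and Mrpl52 and Mrpl53 have the lowest values on the vertical axis.

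Levels per length gave a further view of how the members vary among themselves. In TPM the median member was at 45.1 in cultured, 46.2 in resident and 44.0 in transplanted cells, as a mean over each group's libraries. The members were spread more widely in culture, with an SD of log2 TPM over the 78 genes of 1.23, against 0.85 in resident and 0.805 in transplanted cells. Mrps21 was the highest member in culture (181 ± 51.3 TPM, SD, n = 3) and Mrpl42 the highest in resident and transplanted cells (107 ± 8.55 and 103.5 ± 3.67 TPM, n = 4). Mrpl1 was the lowest in culture at 4.58 ± 1.01 TPM, and Mrpl19 the lowest in resident and transplanted cells at 6.49 ± 0.60 and 7.29 ± 0.61 TPM. Over the 78 genes log2 TPM of resident and transplanted cells correlated at r = 0.99, and cultured with resident cells at 0.80, given as a description since all genes share the same libraries.

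Tested in TPM as deposited, with limma on log2(TPM + 1), 26 members were higher and 32 lower in culture, and the median was -0.01. On this scale the median of all genes also shifted, by -0.95, and 17.4% of all genes were called higher and 68.2% lower. The members' median lay above that of all genes, as in counts. With TPM centred on each library's median, the calls in culture were 63 higher and 3 lower, close to the counts.

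Few of these genes differed between transplanted and resident microglia. Of 78 members edgeR called 0 higher and 1 lower in transplanted cells, where 7.17% of 11929 genes were called higher and 5.86% lower. At an unadjusted p under 0.05 there were 1 higher and 5 lower, against 15.3% and 12.3% of all genes. DESeq2 called 0 higher and 2 lower (Mrps6 and Mrps11), against 6.35% and 5.76% of 16506 genes. In TPM, 1 was higher (Mrps26) and 3 lower (Mrps6, Mrps11 and Mrps18c), where limma called 6.80% of all genes higher and 5.31% lower. Log2 fold changes ran from -0.63 to 0.18 with a median of -0.07, against 0.02 over all genes. They were above 0 for 21 of the 78 members, against 6348 of the 11929 genes. With the length trend removed they were above 0 for 39 of the 78, against 5888 of the 11929. The 5 lowest were those of Mrps6, Mrps11, Mrpl14, Mrps18c and Mrpl58, and the 5 highest those of Mrpl21, Mrpl1, Mrpl19, Mrps27 and Mrps26. A fold that misses the threshold does not show that levels were equal.

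The gene called was Mrps6, which encodes the relative of bacterial S6 in the small subunit (Entrez 121022, chromosome 16: 92058336 to 92112227). It was at 12.5, 9.53, 9.65 and 11.7 CPM in resident libraries and at 6.69, 7.21, 7.36 and 6.68 CPM in transplanted libraries, which did not overlap. The cultured libraries, at 12.7, 15.2 and 8.87 CPM, spanned the resident range. Mrps6 fell by 0.63 ± 0.12 on the log2 scale in transplanted against resident cells (adjusted p = 0.00686), and by 0.49 ± 0.12 with the length trend removed (adjusted p = 0.022). With the trend removed the call was lost without resident replicate 1 or resident replicate 4. Mrps6 shares 36.1% of its exonic bases with other genes on the same strand, among them Slc5a3, a myo-inositol transporter gene. Slc5a3 was at 32.3 ± 3.54 CPM in resident and 39.0 ± 1.48 CPM in transplanted cells, the opposite direction, with a log2 fold change of 0.28 that was not called (adjusted p = 0.0529).

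In 6 genes every transplanted library was below every resident library (Mrpl22, Mrpl58, Mrps6, Mrps11, Mrps18c and Mrps33), and in 1, Mrps26, every one was above, where this held for 9.49% and 10.2% of all genes. Mrps26, a mitochondria-specific protein of the small subunit, was at 19.3, 19.95, 19.3 and 19.4 CPM in resident and 21.3, 21.6, 22.55 and 22.7 CPM in transplanted libraries. Its log2 fold change was 0.18 ± 0.07 in counts (adjusted p = 0.11) and 0.29 ± 0.07 with the length trend removed, where it was called higher (adjusted p = 0.0301). That call was lost without any 1 resident library, or without transplanted replicate 3 or 4. Mrps11 was at 18.4, 17.99, 16.8 and 19.0 CPM in resident and 13.3, 16.8, 12.25 and 10.5 CPM in transplanted libraries (-0.45 ± 0.13, adjusted p = 0.0528). Without transplanted replicate 2, its highest transplanted library, Mrps11 was called lower (-0.60, adjusted p = 0.00527).

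With the length trend removed, 1 member was higher (Mrps26) and 1 lower (Mrps6) in transplanted cells, with a median of 0.00, against 6.09% and 6% of all genes. In counts the shorter members had the lower folds here, opposite to culture and over a narrower range, with a median log2 fold change of -0.115 for the 39 shorter and -0.02 for the 39 longer members (r = 0.44 with log2 length across 78 genes).

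Against cultured cells, most members were lower in transplanted microglia. This comparison shares the cultured libraries with the first. The test called 63 members lower and 2 higher (Mrpl49 and Mrpl38) in transplanted cells, where 35.5% of 12284 genes were lower and 36.9% higher, and the median was -1.07, against 0.05 over all genes. Mrpl33 (-2.79 ± 0.23), Mrpl28 (-2.65 ± 0.16) and Mrps21 (-2.51 ± 0.24) had the lowest values, and Mrpl49 (0.83 ± 0.14) and Mrpl38 (0.51 ± 0.18) the highest. The call of Mrpl38 was lost without cultured replicate 2 (0.43, adjusted p = 0.0532), transplanted replicate 1 (0.48, 0.0655) or transplanted replicate 3 (0.39, 0.0754). For 65 members every transplanted library lay below every cultured one (34.7% of all genes), and for 3, Mrpl38, Mrpl44 and Mrpl49, above (38.6%). In TPM, 25 were lower (16.2% of all genes) and 27 higher (67.9%). With the length trend removed 30 were lower (37.1% of all genes) and 17 higher (34.2%), with a median of -0.10. The transplanted mean lay nearer to the resident than to the cultured mean for 77 of 78 genes, Mrps31 being the exception.

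Genes outside the naming rule that take part in mitochondrial translation did not all move with the ribosomal proteins. Of 5 ribosomal proteins with other names, 4 were higher in culture and 0 lower, with a median log2 fold change of 1.685, and 2 stayed higher with the length trend removed. Dap3, a GTP-binding protein of the small subunit, was at 64.8, 62.7 and 58.5 CPM in culture and 17.5 to 19.0 CPM in resident libraries, and was higher in both fits (1.80 ± 0.10 and 1.39). Aurkaip1 was likewise higher in both (1.68 ± 0.13 and 0.91), Chchd1 (1.80 ± 0.18) and Gadd45gip1 (0.56 ± 0.16) were higher in counts alone, and Ptcd3, a pentatricopeptide repeat protein, had -0.25 ± 0.17.

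The list of mitochondrial tRNA synthetases, the enzymes that charge tRNAs, held 20 genes. It includes Qrsl1, Gatb and Gatc, subunits of an enzyme that modifies charged tRNA. Of the 20 genes, 12 were lower in culture (60.0%, against 37.2% of all genes), 1 was higher and 7 were not called, with a median of -0.65. With the length trend removed 9 were lower (45.0%, against 35.7% of all genes) and 2 higher. Ears2, which charges glutamate tRNA, fell by 1.44 ± 0.19, and Mars2, which charges methionine tRNA, by 1.35 ± 0.46. Among 25 genes for assembly of the ribosome and modification of its RNA, 13 were lower and 5 higher (17 and 3 with the length trend removed), with the rRNA methyltransferase Mrm3 at -1.68 ± 0.24 and Mettl17 at -1.60 ± 0.15.

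Genes that transcribe and maintain the mitochondrial genome were lower in 9 of 12 cases and higher in 2, with a median of -1.39, and the same counts held with the length trend removed. Mterf2 (-3.30 ± 0.83) and Mgme1, a nuclease for mitochondrial DNA (-2.12 ± 0.17), had the lowest values. Of 16 translation factors 7 were higher (43.8%, against 37.9% of all genes) and 3 lower, and 5 were higher and 5 lower with the length trend removed (median -0.15). Gfm2 had -3.60 ± 0.16. Slirp, which binds mitochondrial mRNA, had 2.09 ± 0.22 in counts but -0.54 with the length trend removed. Of 9 nuclear regulators tested 2 were higher (22.2%, against 37.9% of all genes) and 5 lower (55.6%, against 37.2%). Those higher were Ppargc1b (2.57 ± 0.14) and Myc (2.16 ± 0.36). Myc was at 117 CPM in resident replicate 1 and at 35.3 to 54.9 CPM in the other resident libraries, against 247 to 305 CPM in cultured libraries. Nrf1 fell by 1.17 ± 0.12, Gabpb1 by 1.06 ± 0.13, Pprc1 by 0.83 ± 0.16, Esrra by 0.50 ± 0.17 and Gabpb2 by 0.34 ± 0.12. With the length trend removed 2 regulators were higher and 3 lower (33.3%, against 35.7% of all genes), and their median moved from -0.34 to 0.14. Nrf1 (-0.88), Gabpb1 (-0.70) and Esrra (-0.57) stayed lower, and Pprc1 (-0.37) and Gabpb2 (0.14) were no longer called. Gabpa (-0.04 ± 0.24) and Yy1 (0.17 ± 0.29) were not called, and in both cultured replicate 2 stood apart. Gabpa was at 58.2, 26.5 and 56.3 CPM in cultured replicates 1, 2 and 3, against 47.8 to 51.3 CPM in resident libraries. Yy1 was at 26.1, 61.0 and 23.8 CPM, against 32.7 to 35.4 CPM. Ppargc1a, a further regulator on the list, was at 0 to 0.503 CPM over all libraries and did not pass the filter on low counts.

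Genes of the cytosolic ribosome and the respiratory chain had larger folds than the mitochondrial ribosome. Of all genes, 37.9% were called higher in culture and 37.2% lower, or 38.3% and 35.7% with the length trend removed. Of 82 cytosolic ribosomal protein genes tested 81 were higher in culture and 0 lower, with a median log2 fold change of 2.94, and 77 stayed higher and 1 was lower with the length trend removed (median 1.24). These genes have many near-identical pseudogenes, so their counts are uncertain. Of 82 nuclear-encoded respiratory chain genes 81 were higher and 1 lower (2.27), and 57 and 8 with the length trend removed (0.63). The corresponding medians of the 78 mitochondrial ribosomal protein genes were 1.08 and 0.18, lower than both lists in both fits, and the difference between lists was not tested. Proliferation genes were higher as well, with 17 of 18 called and a summed level of 742 to 845 CPM in cultured, 182 to 215 CPM in resident and 204 to 346.5 CPM in transplanted libraries, and their part in the result was not tested.

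**Figure D5:**
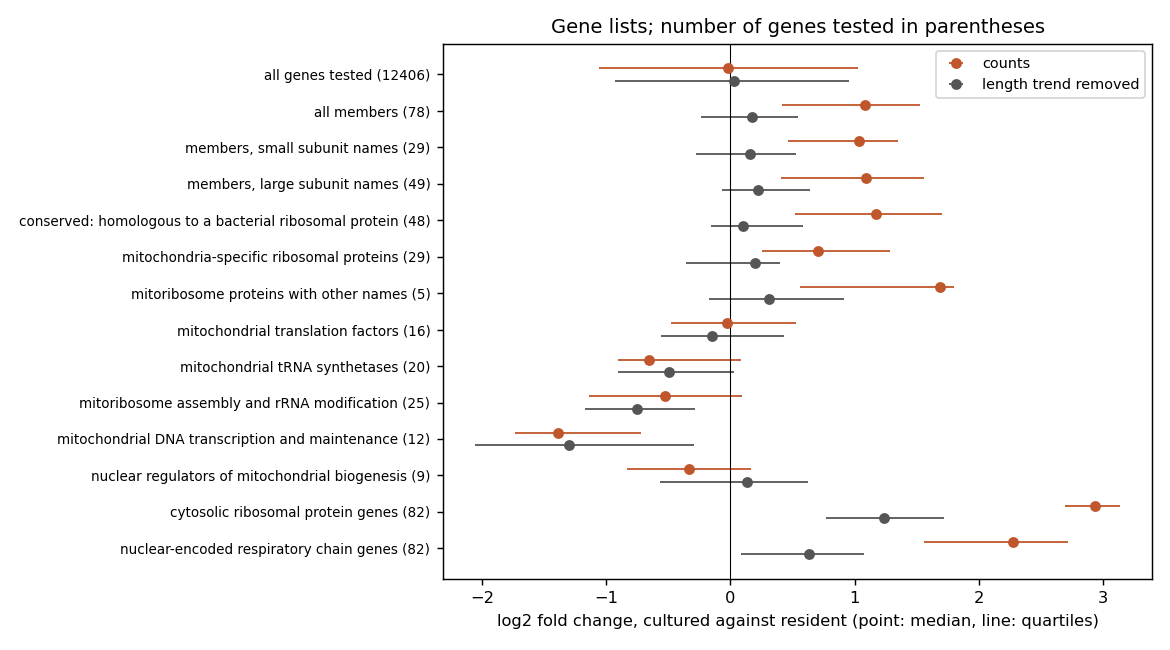
For cultured against resident cells, points give the median log2 fold change of each gene list and lines its quartiles, in counts and with the length trend removed, with the number of genes tested in parentheses. The mitochondrial ribosomal protein genes lie at 1.08 in counts and 0.18 with the trend removed, above the tRNA synthetases and assembly genes and below the cytosolic ribosome and the respiratory chain.

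In transplanted against resident cells, 7.17% of all genes were called higher and 5.86% lower. Of the 9 nuclear regulators 1 was higher (11.1%) and 0 lower. The gene called was Ppargc1b, a coactivator of mitochondrial biogenesis (0.70 ± 0.13, edgeR adjusted p = 0.00507). Further, 3 of the 20 tRNA synthetase genes were higher (Qrsl1 0.42 ± 0.10, Nars2 0.33 ± 0.09 and Tars2 0.32 ± 0.07) and 0 lower. Of 79 respiratory chain genes 0 were higher and 12 lower (15.2%), with a median of -0.22. With the length trend removed 2 were lower (2.5%, against 6% of all genes). None of the 5 ribosomal proteins with other names, the 16 translation factors, the 25 assembly genes or the 11 genes of mitochondrial genome maintenance tested was called.

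Markers of other cells were low beside those of microglia. Astrocyte markers (7 genes) summed to 14.0 to 25.4 CPM in cultured, 209.5 to 264.5 CPM in resident and 141.5 to 269 CPM in transplanted libraries, with Gfap under 1 CPM in each library. Oligodendrocyte markers summed to 164 to 205 CPM over all libraries, and endothelial markers to 10.1 to 10.3, 47.8 to 64.6 and 27.4 to 32.1 CPM in cultured, resident and transplanted libraries. Pecam1 was lower in transplanted than in resident cells (-2.16 ± 0.16), while Cdh5 (1.06 ± 0.26), Flt1 (1.85 ± 0.44) and Kdr (0.66 ± 0.18) were higher, so the endothelial sum did not follow each of its markers. Monocyte and neutrophil markers summed to 52.5 to 58.2, 6.65 to 10.4 and 1.27 to 2.16 CPM, and lymphocyte markers to 3.02 to 3.29, 19.1 to 28.4 and 1.11 to 1.91 CPM in the same order. Neuron, mural cell and fibroblast, and erythroid markers summed to at most 7.22, 5.66 and 3.94 CPM. The part of these cells in the differences of the 78 genes was not tested.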

How the data were processed

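RNA was measured in 11 libraries, grouped by their titles. Per the file headers, the deposited table lists for each gene 11 columns each of expected counts, TPM and FPKM. The authors estimated the expected counts without scaling to depth. TPM and FPKM were scaled by the authors for length and library size. HISAT, Bowtie2 and the build GRCm38.p6 are named in the submitters' processing notes; tool versions, read counter and annotation were not given in the sources used here. TRIzol extraction and Smart-Seq libraries from 1 ng of RNA were used, per the labels' protocols, which name no molecular identifiers.

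Entrez identifiers were matched to RefSeq symbols (16845 of 16894). Expected counts were rounded and each pair of groups was fitted alone in edgeR 4.0.16 under R 4.3.3 (filterByExpr, TMM, quasi-likelihood test, Benjamini-Hochberg adjustment over all genes tested). The SE is the log2 fold change over the square root of F. For the length fit, a loess curve (span 0.3) of each library's log2 CPM ratio on log2 length was used as an offset. TPM was tested with limma 3.58.1 on log2(TPM + 1) for genes with a mean TPM of at least 1, which understates the change of low genes. DESeq2 1.42.0, no filter, a joint fit, a replicate block, other pseudocounts and leaving out each library were alternatives, and the scripts were tested on simulated data. FPKM served for length alone. Shared exonic bases were counted in a GENCODE annotation of the same build.

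Named genes were the 5 highest and 5 lowest members of each comparison, members called between transplanted and resident cells, members called lower or turning with length, 14 members chosen by role, the 3 highest and 3 lowest by TPM, and, of other lists, all regulators and ribosomal proteins with other names and the 2 largest changes elsewhere. Not every fold of these genes was printed. Mrpl17, Mrpl51, Mrps14 and the other members named beyond this were chosen after their values were seen. The members and lists were chosen with earlier results of these data known.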

Additional observations from a re-analysis of the deposited data

Results flagged for a closer look

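In 4 of 82 sets of 4 libraries, 1 library lay far from the other 3, by Dixon's criterion on the gap over the range at the 95% level. Chance flags about 1 in 20 such sets, which is close to the number seen. Mrpl11 stood at 16.3 CPM in resident replicate 2, against 13.0 to 13.6 CPM in the other resident libraries. Mrpl3 was at 27.6 CPM in the same library, below the 29.3 to 29.6 CPM of the others. Mrpl42 was at 19.7 CPM in transplanted replicate 4, against 21.3 CPM in each of the other transplanted libraries. Mrpl45 was at 20.4 CPM in resident replicate 1, against 19.2 to 19.3 CPM in the others. Each gap is small beside the distance between cultured and resident cells for Mrpl11, Mrpl42 and Mrpl45.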

How the results depend on the processing

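Taking out the length trend changed the results between cultured and sorted cells, and so did testing TPM as deposited. With TPM centred on each library's median, 63 members were higher and 3 lower in cultured than in resident cells (median 0.999), close to the counts. The cause of either change was not tested. For cultured against resident cells, the 64 higher and 3 lower members became 31 and 16 (median 0.178) with the length trend removed, 40 and 14 (0.26) with the trend fitted without the ribosome and organelle lists (chosen after seeing the data, like the centred TPM), and 26 and 32 with TPM, where the median turned to -0.013 (pseudocount 1) or -0.014 (0.1). For transplanted against cultured cells, the 2 higher and 63 lower became 17 and 30 (-0.104), 12 and 36 (-0.267), and 27 and 25 (0.043 or 0.047), and 1 was higher at an adjusted p under 0.01. With TPM the share of higher among all calls was 20.3%, against 50.5% in counts, for cultured against resident cells, and 80.8% against 51.0% for transplanted against cultured cells, where the all-gene median shifted by 0.98. For transplanted against resident cells, 1 member was higher with the length trend removed, under both trends and with TPM. The lower calls there were 2 with DESeq2's size factors, its test or no filter, and 3 with TPM or centred TPM (Mrps6, Mrps11 and Mrps18c), and the median moved from -0.074 to 0.00 and -0.008 with the trends. With the trend removed and an adjusted p under 0.01, 0 members were higher or lower in transplanted than in resident cells, and 11 were higher in transplanted than in cultured cells.

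Leaving out each library in turn gave 59 to 63 higher and 3 to 4 lower members for cultured against resident cells (median 0.929 to 1.104), or 27 to 39 and 15 to 19 with the length trend removed (0.133 to 0.228). It gave 0 higher and 1 to 2 lower for transplanted against resident cells (-0.098 to -0.044), or 0 to 1 and 0 to 2 (-0.011 to 0.022). For transplanted against cultured cells it gave 1 to 2 higher and 60 to 62 lower (-1.121 to -0.963), or 13 to 15 and 25 to 34 (-0.179 to -0.102), with 1 higher without cultured replicate 2.

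Pairing by replicate number was looked for in each library's log2 CPM after its group's mean was subtracted for each gene. In these deviations same-numbered libraries of different groups correlated at -0.041 to 0.062, and libraries with different numbers at -0.077 to 0.117. Replicate numbers thus gave no sign of pairing by this measure. With a replicate block, 57 members were higher and 3 lower in cultured than in resident cells (median 1.066), 2 higher and 58 lower in transplanted than in cultured cells, and 0 and 1 in transplanted than in resident cells. With the block and the length trend removed these counts were 26 and 14 (0.165), 12 and 24 (-0.107), and 0 and 0 (-0.003). Between cultured and resident cells the block left, among others, Mrpl3 (adjusted p = 0.056), Mrpl24 (0.0693), Mrpl52 (0.051) and Mrps11 (0.0626) uncalled in counts, and Mrps34 (0.0569) with the trend removed; Mrps6 between transplanted and resident cells had an adjusted p of 0.0523 there.

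Named genes that reversed between cultured and resident cells with the length trend removed, with the block added and, where it reversed there too, with the trend fitted without the lists, were Mrpl22 (-0.804, -0.803, -0.618), Mrpl24 (-0.704, -0.683, -0.599), Mrpl32 (-0.433, -0.453, -0.248), Mrpl42 (-0.263, -0.251, -0.005), Mrpl52 (-1.975, -1.988, -1.496), Mrps11 (-0.598, -0.592, -0.509), Mrps12 (-0.236, -0.23, -0.027), Mrps18b (-0.439, -0.49, -0.366), Mrps18c (-0.239, -0.271), Mrps21 (-0.068, -0.012), Mrps28 (-0.58, -0.589, -0.363) and Mrps34 (-0.382, -0.394, -0.254). Between transplanted and cultured cells Mrps18c (0.129, 0.19) and Mrps21 (0.049, 0.077) reversed. With TPM at pseudocounts of 1 and 0.1 the reversed values were Mrpl3 (-0.661, -0.677), Mrpl10 (-0.471, -0.479), Mrpl11 (-0.019, -0.021), Mrpl22 (-0.445, -0.453), Mrpl24 (-0.766, -0.776), Mrpl32 (-0.055, -0.055), Mrpl35 (-0.006, -0.007), Mrpl52 (-0.52, -0.527), Mrps11 (-0.702, -0.72), Mrps18b (-0.672, -0.682), Mrps28 (-0.097, -0.099), Mrps30 (-0.585, -0.602) and Mrps34 (-0.277, -0.282).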

Other observations

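Outside the gene lists, the genes whose log2 CPM followed the mean of the 78 members most closely over the 11 libraries were Znhit1 (r = 0.999), Hint1 (0.999), Ap2s1 (0.999), Eif6 (0.998) and Dbi (0.998). These values are a description: cultured libraries form a cluster of their own and set most of the relation. Over the 8 sorted libraries alone r was 0.969, 0.93, 0.939, 0.909 and 0.953 in the same order. Members varied more between cultured libraries, with a median coefficient of variation of 15.2%, than between resident (6.43%) or transplanted libraries (8.75%). Mrps21 varied most in culture (36.7%), Mrps6 in resident cells (13.8%) and Mrps18b in transplanted cells (24.5%), where Mrps18b was at 26.3, 28.3, 44.4 and 33.05 CPM.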
